A study of Saccharomyces cerevisiae with 28 samples.

Results

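Yeast takes up glucose through a family of membrane carriers and adjusts which of them it makes to the sugar outside the cell. The levels of 10 genes of this system were followed here. They were HXT1, HXT2, HXT3, HXT4, HXT5 and HXT7 (hexose transporters), SNF3 and RGT2 (glucose sensors), and MTH1 and STD1 (co-repressors that the sensors control). They were chosen by name, with earlier results of these data known. Each had 1 probe set assigned to it alone, and together they are 10 of the 5656 genes with such a probe set on the array. Their locus tags are YHR094C (HXT1), YMR011W (HXT2), YDR345C (HXT3), YHR092C (HXT4), YHR096C (HXT5), YDR342C (HXT7), YDL194W (SNF3), YDL138W (RGT2), YDR277C (MTH1) and YOR047C (STD1).

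RNA came from Saccharomyces cerevisiae in log phase and was measured on 28 Affymetrix arrays in 8 groups. BY is isogenic to the laboratory strain S288C and RM is a wild isolate from a vineyard. Haploid BY, haploid RM, diploid BY and diploid RM gave 3 arrays each. Diploid BYxRM hybrids gave 6 arrays, and mRNA of BY and RM mixed in equal parts gave 6. Segregants of the cross gave 2 arrays, and diploids made from segregants (segregant hybrids) gave 2. The labels do not give mating types, marker mutations, the growth medium, the glucose concentration, the cell density or whether replicates were separate cultures. The p-values therefore refer to differences among arrays of a group, and these can be technical.

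Snf3 and Rgt2 resemble transporters but act as receptors. Snf3 senses low glucose and Rgt2 senses high glucose, and glucose bound to them leads to the degradation of Mth1 and Std1. Without these partners the repressor Rgt1 leaves the HXT promoters, and transporter genes are switched on. HXT1 and HXT3 encode low-affinity carriers made when glucose is plentiful. HXT2, HXT4 and HXT7 encode carriers of higher affinity that abundant glucose represses through Mig1 and related repressors, and HXT5 is known for its presence in slowly growing cells.

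Levels are the deposited log2 values, on which a difference of 1 is a doubling. A level can be compared between arrays for 1 probe set, but not between probe sets. Array medians lay between 7.34 and 7.56. Arrays within a group correlated at 0.956 or more across probe sets, except for mixture array 5. The genes GPA1, FAR1, RME1, STE4, STE18 and HO, which haploid cells express, checked the ploidy labels. The log2 of their summed level was 11.49 to 11.77 in the haploid parents and 9.26 to 9.52 in the diploid parents. It was 9.13 to 9.63 in the hybrids, 11.64 to 11.74 in the mixtures, 11.61 to 11.64 in the segregants and 9.19 to 9.37 in the segregant hybrids. All 6 markers were lower in BY diploids than in BY haploids, and 5 of 6 in RM. The exception was HO, at 6.86 to 7.39 in RM haploids and 6.82 to 7.06 in RM diploids (adjusted p = 0.653). In the segregants HO read 6.59 and 6.62, below every diploid parent array. The haploid parents also differed in mating-type markers. All 5 markers of type a were higher and all 4 of type alpha lower in RM haploids than in BY haploids. STE2, the receptor for alpha factor, read 6.01 to 6.14 in BY haploids and 10.76 to 11.08 in RM haploids, and SAG1, the alpha agglutinin, 11.72 to 12.12 and 6.56 to 7.24. Strain and mating type cannot be told apart in the haploid comparison, nor mating type and ploidy in the ploidy comparisons, and both enter the interaction. All 6 mixtures lay in the haploid range, and mixtures were set against the haploid parents. The labels do not say which cells gave the mixed mRNA. Mixture arrays 1 and 2 stood apart from the other 4 in several of the 10 genes. The log2 summed level of 5 stress and slow growth genes (HSP12, CTT1, HSP26, SSA4 and DDR2) was also highest on them, at 13.86 and 13.77 against 13.03 to 13.44 on the other 4, and its part was not tested. Differences between hybrids and mixtures are given with and without these arrays. Differences were tested with limma over all 9274 probe sets, and "called" means a Benjamini-Hochberg adjusted p under 0.05.

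**Figure D1:**
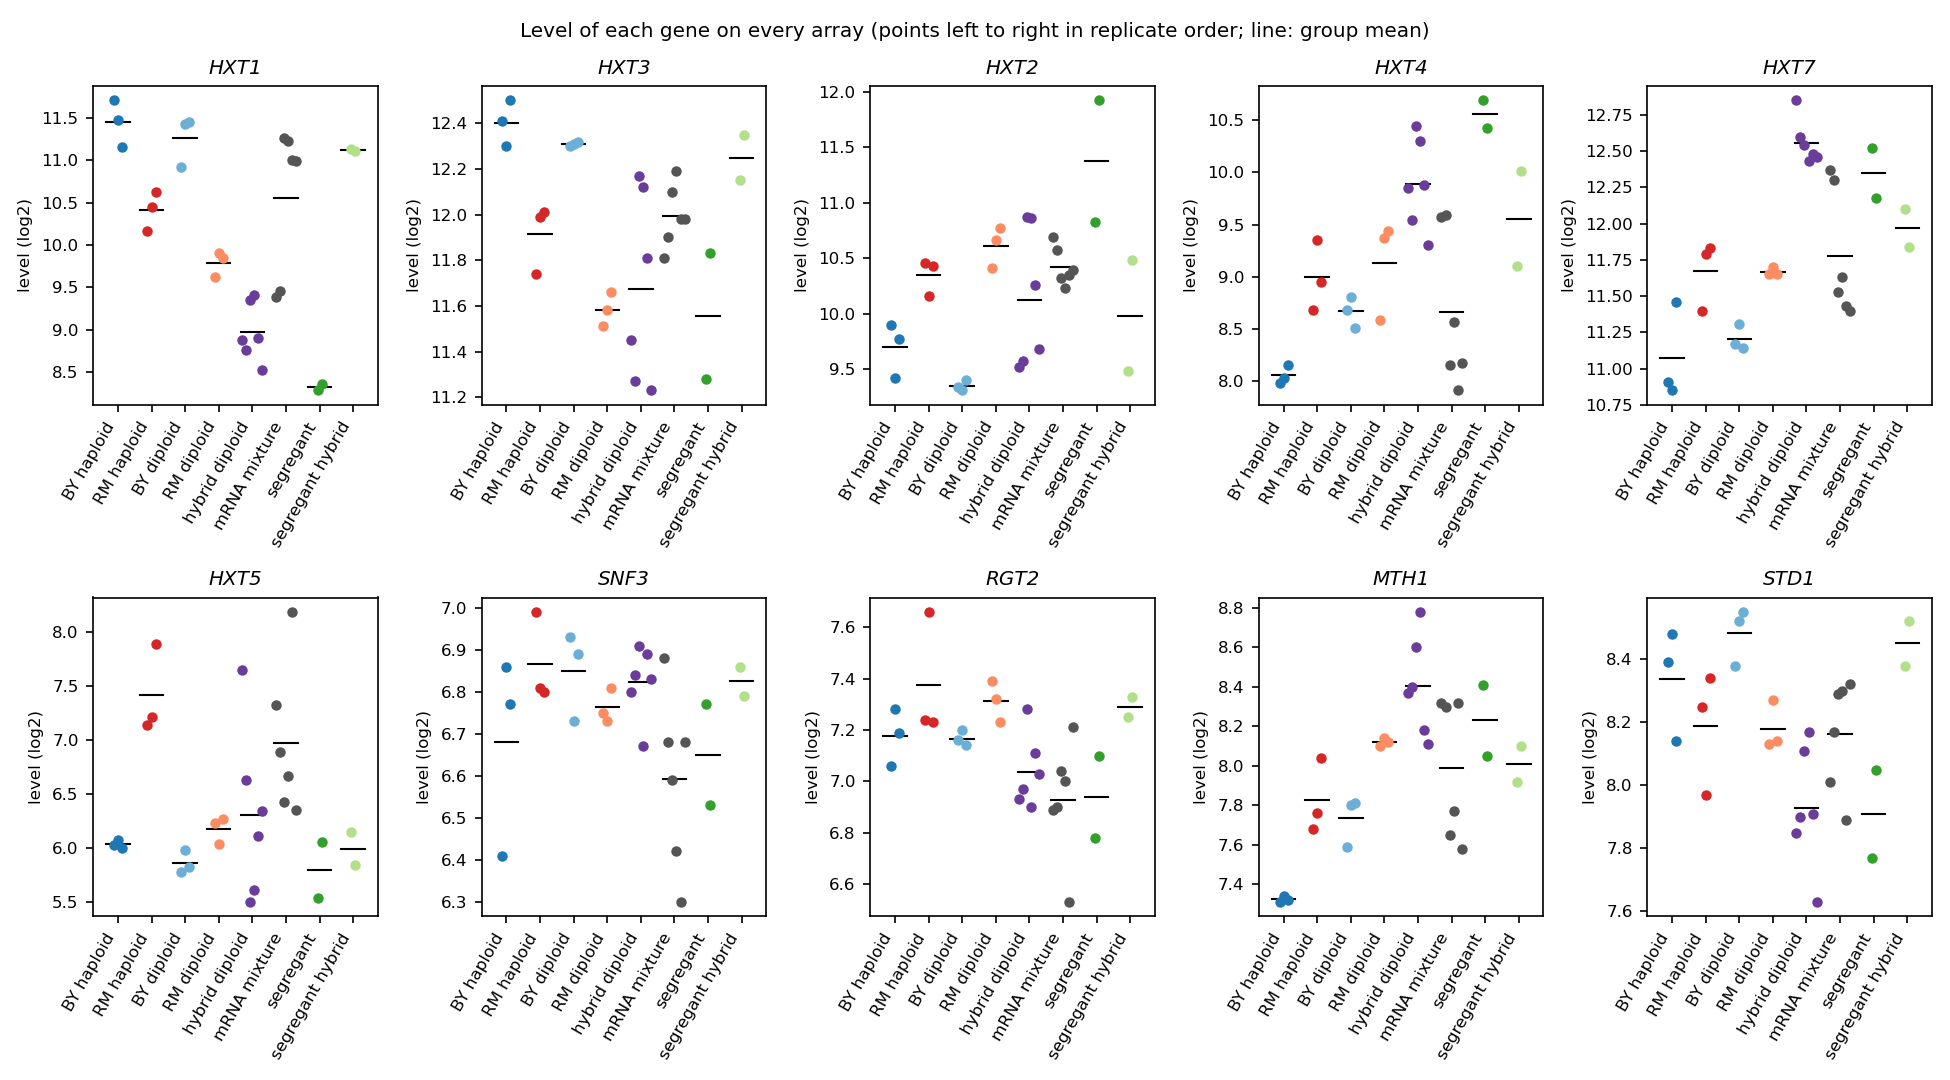
Level (log2) of each of the 10 genes on every array, 1 panel per gene, with the 8 groups along the horizontal axis and a vertical scale of its own in each panel. Points are arrays in replicate order and lines are group means. HXT1 is lower on all 6 hybrid arrays than on any array of the diploid parents, and HXT7 is higher on all 6, while SNF3 varies little.

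The first question was how the transporter program differs between BY and RM, with mating type differing too in the haploids. In diploids RM had less of both low-affinity transporters and more HXT2. In haploids 7 of the 10 genes had an unadjusted p under 0.05, but HXT5, higher in RM, was the only one called. The share of all probe sets at that unadjusted threshold was not counted, so nothing is read from this count or from those below. In diploids 17.2% of all probe sets were called (7.40% higher and 9.83% lower in RM), and of the 10 genes 3 were (1 higher, 2 lower). In haploids 18.0% of all probe sets were called (9.89% higher in RM), and 1 of the 10 genes was, a share below that of all probe sets.

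HXT1 in BY diploids read 10.92, 11.43 and 11.45, and in RM diploids 9.62, 9.90 and 9.85. The groups did not overlap, and HXT1 was 2.78-fold lower in RM (log2 difference -1.48 ± 0.39 SE, n = 3 and 3, limma adjusted p = 0.00971). In cultures of many cells, fewer cells with a transcript and less of it per cell cannot be told apart. In haploids HXT1 read 11.71, 11.48 and 11.16 in BY and 10.17, 10.45 and 10.63 in RM, again without overlap. There the difference was -1.03 ± 0.39 and missed the threshold (adjusted p = 0.0743). It was called with only BY and RM haploids in the fit (adjusted p = 0.00372), a replicate block (0.0470) or array weights (0.0445). It stayed uncalled whichever haploid array was left out (adjusted p = 0.0827 to 0.219).

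HXT3, the other low-affinity carrier, was close to constant in BY diploids at 12.30, 12.31 and 12.32. RM diploids read 11.51, 11.58 and 11.66, all lower, and the fold was 1.65 (-0.73 ± 0.19, adjusted p = 0.00897). Haploid BY read 12.41, 12.30 and 12.50 and haploid RM 11.74, 11.99 and 12.01. These groups also stood apart, with a difference of -0.49 ± 0.19 that was not called (adjusted p = 0.0828).

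HXT2, a carrier of higher affinity, ran the other way. BY diploids read 9.34, 9.31 and 9.40, and RM diploids 10.41, 10.66 and 10.77. Every RM diploid was above every BY diploid, and the level was 2.40-fold higher in RM (1.26 ± 0.28, adjusted p = 0.00185). In haploids BY read 9.90, 9.42 and 9.77 and RM 10.46, 10.16 and 10.43, a difference of 0.65 ± 0.28 (adjusted p = 0.113).

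HXT4 and HXT7 had higher group means in RM at both ploidies, but neither was called in the fit of all 6 groups. HXT4 in haploids read 7.98, 8.03 and 8.15 in BY and 8.68, 9.35 and 8.95 in RM (0.94 ± 0.37, adjusted p = 0.0877). The haploid groups did not overlap, whereas in diploids BY reached 8.81 and RM went down to 8.58 (0.46 ± 0.37, adjusted p = 0.477). HXT7 differed by 0.60 ± 0.22 in haploids (adjusted p = 0.0635) and by 0.46 ± 0.22 in diploids (adjusted p = 0.178). The HXT7 probe set shares sequence with that of HXT6, which encodes a near-identical protein. Over the 28 arrays both probe sets correlated at r = 0.997, so their transcripts cannot be told apart here. In haploids the HXT6 probe set was called (0.60 ± 0.21, adjusted p = 0.0463). HXT7 itself was called with quantile normalization (0.77, adjusted p = 0.0202) and without BY haploid array 3 (0.79, adjusted p = 0.0232). It was also called without RM haploid array 1 (0.74, adjusted p = 0.0435) and without mixture array 5 (adjusted p = 0.0415). With only BY and RM haploids in the fit it was not called (adjusted p = 0.0735).

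HXT5 read 6.03, 6.07 and 6.0 in BY haploids and 7.14, 7.22 and 7.89 in RM haploids. It was 2.61-fold higher in RM without overlap (1.38 ± 0.42, adjusted p = 0.0240). In diploids BY read 5.78, 5.98 and 5.82 and RM 6.23, 6.04 and 6.27, a difference of 0.32 ± 0.42 (adjusted p = 0.706). The HXT5 signal was dim: its mean level lay at the 24.1 percentile of all probe sets, and 2 hybrid and 1 segregant arrays fell under 5.73, the 10th percentile of all values. Leaving out any BY haploid array or RM haploid array 3 ended the call, with adjusted p-values of 0.0546 to 0.110.

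The same stress and slow growth genes were followed here, since HXT5 is known from slow growth. In RM against BY haploids 3 of the 5 were higher and 1 lower. The log2 of their summed level was 12.24 to 12.61 in BY haploids, 13.89 to 14.29 in RM haploids, 11.37 to 11.54 in BY diploids and 12.47 to 12.79 in RM diploids. None of the 5 was at 0 in any group. Their part in the HXT5 difference was not tested.

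None of the sensors and co-repressors was called between the strains in the fit of all 6 groups. SNF3 spanned 6.41 to 6.99 over the 12 parent arrays and RGT2 7.06 to 7.66, with strain differences of 0.19 ± 0.13 and 0.20 ± 0.14 in haploids and -0.09 ± 0.13 and 0.15 ± 0.14 in diploids, none of them called. MTH1 read 7.31, 7.34 and 7.32 in BY haploids and 7.68, 7.76 and 8.04 in RM haploids. These arrays did not overlap, but the difference of 0.50 ± 0.19 was not called (adjusted p = 0.0771), nor was that of 0.39 ± 0.19 in diploids (adjusted p = 0.199). STD1 gave -0.15 ± 0.14 in haploids and -0.30 ± 0.14 in diploids (adjusted p = 0.551 and 0.173). With only the compared groups in the fit, 6 of the 10 genes and 14.9% of all probe sets were called in haploids, and 6 of the 10 and 26.7% in diploids. In haploids these genes were HXT1, HXT2, HXT3, HXT4, HXT5 and MTH1 (adjusted p = 0.0419 for MTH1). In diploids they were HXT1, HXT2, HXT3, HXT7, MTH1 and STD1 (adjusted p = 0.0190 for MTH1 and 0.0443 for STD1).

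The second question was whether haploid and diploid cells of a strain differ. limma called 0 of the 10 genes in BY, where 6.35% of all probe sets were called, and 0 in RM, where 8.24% were. At an unadjusted p under 0.05 there was 1 gene in each strain, MTH1 in BY (0.41 ± 0.19, adjusted p = 0.316) and HXT5 in RM (-1.24 ± 0.42, adjusted p = 0.0789). No share of all probe sets was counted at this threshold. The HXT5 arrays of RM did not overlap, at 7.14 to 7.89 in haploids and 6.04 to 6.27 in diploids. The haploid and diploid MTH1 arrays of BY also stood apart, at 7.31 to 7.34 against 7.59 to 7.81. HXT4 in BY separated too, at 7.98 to 8.15 in haploids and 8.51 to 8.81 in diploids (0.61 ± 0.37, adjusted p = 0.497). So did HXT2 and HXT5 in BY and HXT1, HXT3 and MTH1 in RM, none of them called. How often the arrays of compared groups separate over all probe sets was not counted, so nothing is read from separation alone. The fit on the compared groups alone called HXT4 (0.61 ± 0.11, adjusted p = 0.00784) and MTH1 (0.41 ± 0.10, adjusted p = 0.0383) in BY, with 8.85% of all probe sets. In RM it called HXT5 (adjusted p = 0.00998), with 6.77% of all probe sets.

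Whether the strain difference depends on ploidy was tested as an interaction, which limma called for 1.95% of probe sets and for 0 of the 10 genes, with 0 at an unadjusted p under 0.05. The estimates were -1.06 ± 0.60 for HXT5 (adjusted p = 0.607), 0.61 ± 0.39 for HXT2 (adjusted p = 0.696) and -0.44 ± 0.56 for HXT1 (adjusted p = 0.914). The calls made in diploids and not in haploids are therefore not shown to differ between the ploidies. With only the 4 compared groups in the fit, the HXT5 interaction was called (adjusted p = 0.0296), as were 2.58% of all probe sets.

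**Figure D2:**
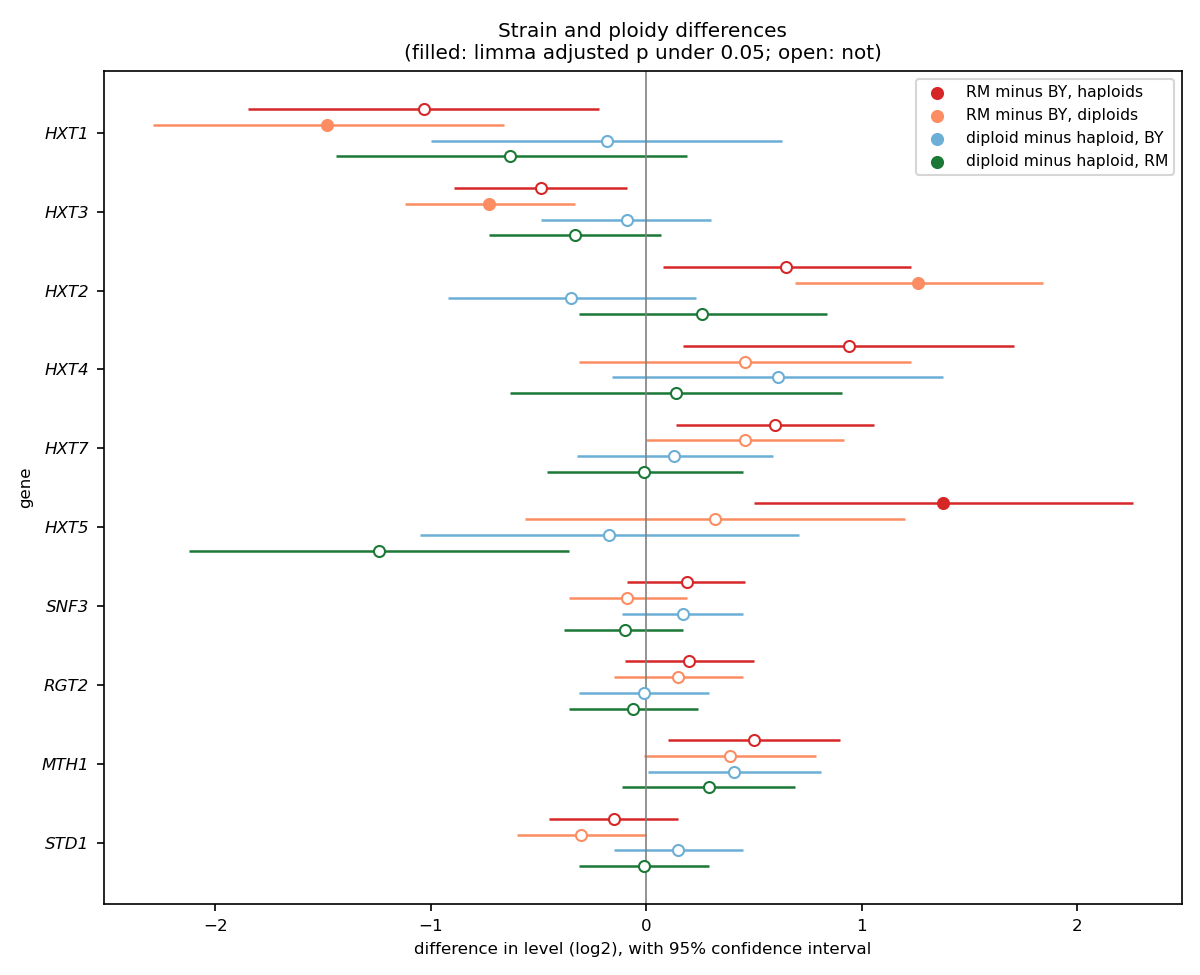
Difference in level (log2, horizontal axis) with its 95% confidence interval for each of the 10 genes (vertical axis): RM minus BY in haploids and diploids, and diploid minus haploid in BY and RM. Filled points had a limma adjusted p under 0.05, which HXT1, HXT2 and HXT3 reached for strain in diploids and HXT5 for strain in haploids.

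The third question was how the BYxRM hybrid relates to its parents. Hybrids had more HXT7 than either diploid parent. HXT4 and MTH1 were also above the mean of the parents, and HXT1 and STD1 were below it. HXT1 was lower on all hybrid arrays than on any parent array, but its difference from RM diploids was not called. How often hybrid arrays lie outside the parents' range over all probe sets was not counted. Such array positions are therefore given here and below as a description only. The hybrid arrays are shared by the next 4 comparisons, which are given side by side and are not independent. Against BY diploids 7 of the 10 genes were called (4 higher, 3 lower), where 23.1% of all probe sets were (9.79% higher, 13.3% lower). The fit on these groups alone called 5 of 10, and 28.9% of all probe sets. Against RM diploids 1 of 10 was called, which was higher, and 12.5% of all probe sets (6.56% higher), so the members' share was no larger than the background. Against the midparent, the log2 of the mean of both diploid parents' linear levels, 5 of 10 were called (3 higher, 2 lower), with 18.1% of all probe sets (6.51% higher, 11.5% lower). The median difference of the 10 genes from the midparent was 0.01, and that of all probe sets was -0.09.

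HXT1 read 8.87, 8.76, 9.35, 9.41, 8.90 and 8.52 on hybrid arrays 1 to 6. All 6 lay below the lowest diploid parent array, an RM array at 9.62. The hybrid was 4.92-fold below BY diploids (-2.30 ± 0.34, n = 6 and 3, adjusted p = 3.7e-05) and 3.34-fold below the midparent (-1.74 ± 0.29, adjusted p = 4.6e-04). Against RM diploids the difference was -0.82 ± 0.34, with a 95% interval from -1.53 to -0.12, and was not called (adjusted p = 0.114). The fit on hybrids and RM diploids alone did call it (adjusted p = 0.0181), together with HXT7 and 14.3% of all probe sets.

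HXT3 in the 6 hybrids read 11.45, 11.27, 12.17, 12.12, 11.81 and 11.23, of which 3 were below every diploid parent array and 3 within the parents' range. HXT3 was 1.55-fold lower than in BY diploids (-0.63 ± 0.17, adjusted p = 0.00736), a call lost in the fit on these groups alone (-0.63 ± 0.22, adjusted p = 0.0508). It was 0.09 ± 0.17 above RM diploids (adjusted p = 0.738) and -0.32 ± 0.14 from the midparent (adjusted p = 0.113), neither of which was called. The midparent difference was called without hybrid array 3 (-0.42, adjusted p = 0.0257) or 4 (-0.41, adjusted p = 0.0328).

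HXT7 read 12.85, 12.60, 12.54, 12.43, 12.48 and 12.46 on the hybrid arrays. BY diploids read 11.17, 11.31 and 11.14 and RM diploids 11.65, 11.70 and 11.65, so all 6 hybrids were above all 6 parents. The rise was called against BY (2.56-fold, 1.35 ± 0.19, adjusted p = 2.1e-05), against RM (1.86-fold, 0.89 ± 0.19, adjusted p = 0.00249) and against the midparent (2.15-fold, 1.11 ± 0.16, adjusted p = 7.7e-05). It was the only one of the 10 genes called against both parents. Its spread over the hybrids was 0.15 (SD, n = 6), the smallest among the 6 transporters in that group.

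HXT4 read 9.85, 9.54, 10.45, 10.30, 9.88 and 9.30 in the hybrids. Diploid BY gave 8.68, 8.81 and 8.51 and diploid RM 8.58, 9.37 and 9.44, and 5 of the 6 hybrids were above all of them. HXT4 was 2.33-fold above BY (1.22 ± 0.32, adjusted p = 0.00795) and 1.96-fold above the midparent (0.97 ± 0.26, adjusted p = 0.0138). The difference from RM, 0.76 ± 0.32, was not called (adjusted p = 0.124). Without RM diploid array 1 the midparent call was lost (0.80 ± 0.28, adjusted p = 0.0557).

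HXT2 spread widely, at 9.52, 9.57, 10.87, 10.86, 10.26 and 9.68. Arrays 3 and 4 were above every diploid parent array and the other 4 lay between the parents' lowest and highest arrays. The mean was 0.78 ± 0.24 above BY (adjusted p = 0.0211), -0.49 ± 0.24 from RM (adjusted p = 0.182) and 0.01 ± 0.20 from the midparent (adjusted p = 0.976). The call against BY was lost without any BY diploid array, with adjusted p-values of 0.0602 to 0.0748, and in the fit on these groups alone (0.78 ± 0.32, adjusted p = 0.0905). Hybrid arrays 3 and 4 were also the highest of the hybrids for HXT1, HXT3, HXT4, MTH1 and STD1, and the lowest for HXT5.

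HXT5 read 7.65, 6.63, 5.50, 5.61, 6.11 and 6.34 in the hybrids, a range of over 2 on the log2 scale. It overlapped both parents and was not called against BY (0.45 ± 0.37, adjusted p = 0.421), RM (0.13 ± 0.37, adjusted p = 0.843) or the midparent (0.28 ± 0.30, adjusted p = 0.548). The stress and slow growth sum on the same arrays was 14.70, 13.71, 12.46, 12.28, 13.09 and 13.67. Arrays 3 and 4 were lowest and array 1 highest in both. Of the 5 genes in that list, 4 were higher in hybrids than in BY diploids, 1 than in RM diploids and 4 than the midparent, and their part in the transporter differences was not tested.

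MTH1 read 8.37, 8.40, 8.60, 8.78, 8.18 and 8.11 in the hybrids. BY diploids lay at 7.59, 7.80 and 7.81 and RM diploids at 8.10, 8.14 and 8.12. All hybrids exceeded BY, 5 of 6 exceeded both parents, and the difference was 0.67 ± 0.17 from BY (1.59-fold, adjusted p = 0.00512). It was 0.29 ± 0.17 from RM (adjusted p = 0.266) and 0.47 ± 0.14 from the midparent (1.38-fold, adjusted p = 0.0210).

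STD1, which encodes the paralog of Mth1, went the opposite way. The hybrids read 7.85, 7.90, 8.11, 8.17, 7.91 and 7.63, BY diploids 8.38, 8.52 and 8.55, and RM diploids 8.13, 8.27 and 8.14. All but hybrid array 4 were below every parent. STD1 was 1.47-fold lower than in BY (-0.55 ± 0.12, adjusted p = 0.00233) and 1.33-fold lower than the midparent (-0.41 ± 0.10, adjusted p = 0.00796), and it differed from RM by -0.25 ± 0.12 (adjusted p = 0.185). Without hybrid arrays 1 and 6, an alternative added once the levels were known, the midparent call was lost (-0.32 ± 0.11, adjusted p = 0.0733).

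The sensors were not called in any hybrid comparison with the parents. SNF3 ranged from 6.67 to 6.91 with a median of 6.83, inside the diploid parents' range on 5 of 6 arrays, and lay 0.02 ± 0.09 from the midparent (adjusted p = 0.924). RGT2 ranged from 6.90 to 7.28 with a median of 7.0, and 5 of 6 arrays were below every parent array. Its difference from the midparent was -0.21 ± 0.10 (adjusted p = 0.171).

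**Figure D3:**
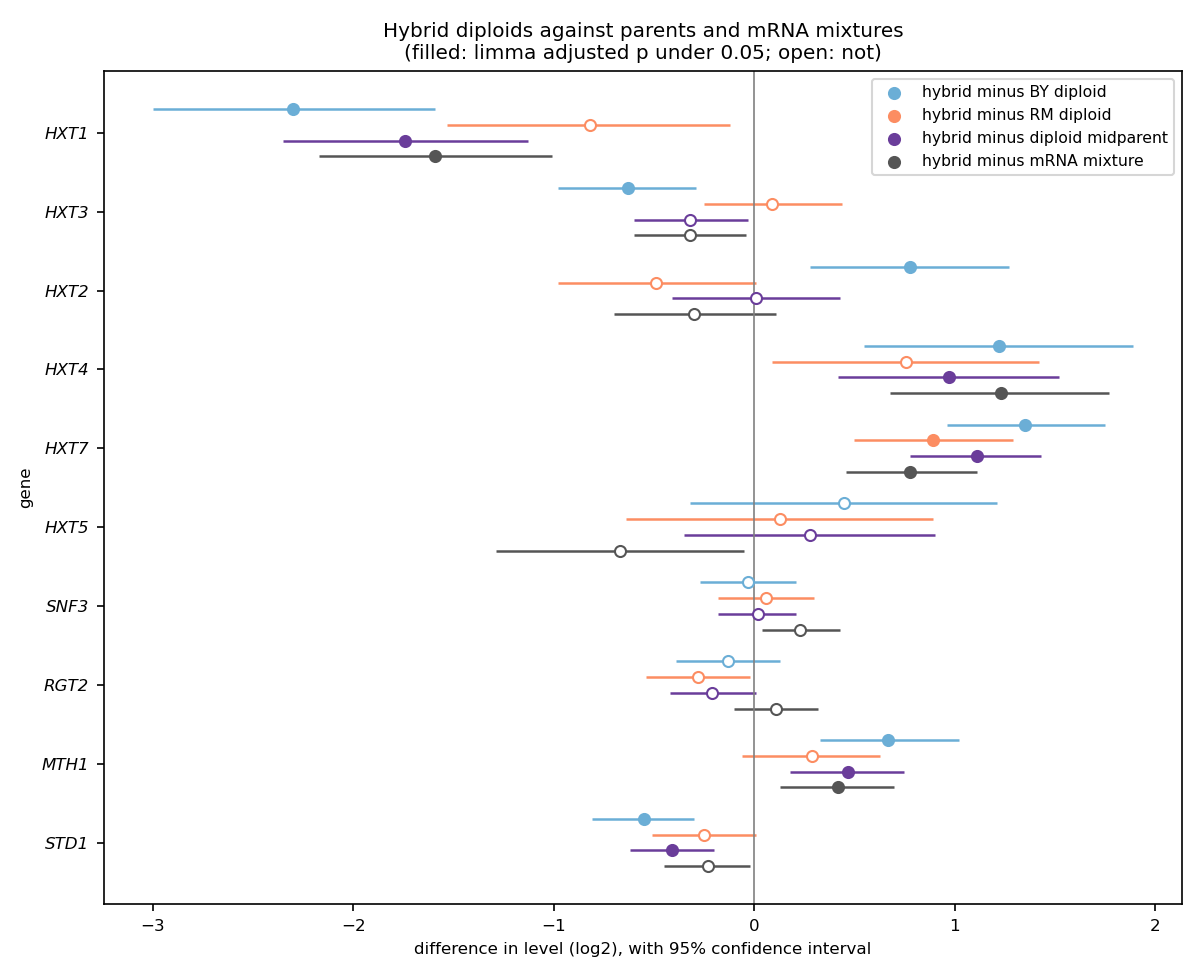
Difference in level (log2, horizontal axis) with its 95% confidence interval for each of the 10 genes (vertical axis) between hybrid diploids and BY diploids, RM diploids, the diploid midparent and the mRNA mixtures. Filled points had a limma adjusted p under 0.05. HXT7 is filled in all 4 comparisons, and HXT1, HXT4 and MTH1 are filled in all but the one with RM diploids.

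The mixtures hold mRNA of both strains that never shared a cell, so the hybrid was also set against them. Since the mixtures lie in the haploid range of the markers, ploidy and mating type differ in this comparison as well, and cannot be told apart from sharing a cell. In that comparison 28.2% of probe sets were called (17.1% higher, 11.0% lower in hybrids), and 4 of the 10 genes were (3 higher, 1 lower in hybrids). HXT1 in the mixtures read 9.39, 9.46, 11.27, 11.23, 11.01 and 10.99. Arrays 1 and 2 lay more than 1 below the other 4, and array 1 just reached the hybrids' range, which ended at 9.41. HXT1 was 3.01-fold lower in hybrids (-1.59 ± 0.28, n = 6 and 6, adjusted p = 1.1e-04), and without mixture arrays 1 and 2 the difference was -2.16 ± 0.17 (adjusted p = 2.0e-09).

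HXT7 in the mixtures read 12.37, 12.30, 11.53, 11.63, 11.43 and 11.40. Arrays 1 and 2 were the highest, yet all 6 stayed below the lowest hybrid. HXT7 was 1.72-fold higher in hybrids (0.78 ± 0.16, adjusted p = 4.6e-04), or 1.06 ± 0.12 higher without these arrays (adjusted p = 5.6e-07). HXT4 read 9.57, 9.59, 8.15, 8.57, 7.91 and 8.17, so arrays 1 and 2 overlapped the hybrids and the others did not. The HXT4 difference was 1.23 ± 0.26 (2.34-fold, adjusted p = 9.8e-04), and 1.69 ± 0.21 without them (adjusted p = 1.9e-06).

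MTH1 in the mixtures read 8.32, 8.30, 7.65, 7.77, 8.32 and 7.58, so that arrays 1, 2 and 5 lay within the hybrids' range and the rest below it. The difference was 0.42 ± 0.14 (adjusted p = 0.0245). It lost the call without hybrid array 3 or 4 or mixture array 3, 4 or 6, with adjusted p-values of 0.0546 to 0.0722, and with only these groups in the fit (adjusted p = 0.0881). Leaving out mixture arrays 1 and 2 gave 0.58 with an adjusted p of 0.00349 and brought SNF3 past the threshold (0.33, adjusted p = 0.0170). With all arrays SNF3 was at 0.23 ± 0.09 (adjusted p = 0.0718).

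The other members were not called between hybrids and mixtures. HXT5 in the mixtures read 7.33, 6.89, 6.43, 6.67, 8.19 and 6.35, and the hybrid differed by -0.67 ± 0.30 (adjusted p = 0.104). This difference was called without hybrid array 1 (-0.94 ± 0.26, adjusted p = 0.00969), without hybrid arrays 1 and 6 (-1.01 ± 0.28, adjusted p = 0.0105) and with array weights (adjusted p = 0.00503). Without mixture array 5 it was -0.43 (adjusted p = 0.248), and without mixture arrays 1 and 2 it was -0.60 ± 0.35 (adjusted p = 0.210). Mixture array 5, whose profile stood apart over all probe sets, held the highest HXT5 level of the 28 arrays. HXT2 ranged from 10.23 to 10.69 with a median of 10.37, HXT3 from 11.81 to 12.19 with a median of 11.98, and STD1 from 7.89 to 8.32 with a median of 8.23. Their differences were -0.30 ± 0.20, -0.32 ± 0.14 and -0.23 ± 0.10 (adjusted p = 0.278, 0.0851 and 0.0920). Without mixture arrays 1 and 2 they were -0.20 ± 0.22, -0.39 ± 0.15 and -0.27 ± 0.12 (adjusted p = 0.546, 0.0684 and 0.0922).

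The mixtures were also set against the haploid midparent, the log2 of the mean of both haploid parents' linear levels. The haploid parent arrays are not known to be the sources of the mixed mRNA. Of all probe sets 8.53% were called (7.00% lower), and 1 of the 10 genes, RGT2, was lower (-0.35 ± 0.10, adjusted p = 0.0344). With only the mixtures and haploid parents in the fit, 1 of the 9274 probe sets (0.0108%) was called, and RGT2 was not (adjusted p = 0.147). The share of all probe sets called here therefore depends on the fit. RGT2 read 6.89, 6.90, 7.04, 7.0, 6.53 and 7.21 in the mixtures, and BY haploids spanned 7.06 to 7.28 and RM haploids 7.23 to 7.66. The 5 arrays other than array 6 were below every haploid parent. The call was lost without mixture array 1, 2 or 5, BY haploid array 2 or 3 or RM haploid array 2 (adjusted p = 0.0524 to 0.132), and without mixture arrays 1 and 2 together none of the 10 genes was called. HXT1 differed by -0.47 ± 0.29 (adjusted p = 0.341) with all 6 arrays and by 0.10 without arrays 1 and 2. On arrays 1 and 2 HXT1 was below every haploid parent array, and HXT2, HXT4 and HXT7 were above every one. Whether the mixed mRNA came from the parents' cultures is not stated in the labels.

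The segregants carry mixed genomes, each may be another genotype, and their arrays entered no test. HXT1 was at 8.28 and 8.35 in the segregants, below all 26 other arrays. HXT2 was at 10.83 and 11.92, HXT4 at 10.69 and 10.43, HXT7 at 12.52 and 12.18 and MTH1 at 8.41 and 8.05, all above every haploid parent array. The segregants thus had low HXT1 together with high levels of the 3 higher-affinity carriers. HXT3 read 11.28 and 11.83, STD1 7.77 and 8.05, HXT5 5.54 and 6.06, SNF3 6.77 and 6.53, and RGT2 6.78 and 7.10.

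The segregant hybrids did not share that HXT1 level. HXT1 read 11.14 and 11.11, inside the range of the BY diploids. HXT7, at 12.10 and 11.84, was above all diploid parents on both arrays, while HXT4 (9.10 and 10.01) and HXT3 (12.15 and 12.35) were above them on 1 array each. HXT2 was at 9.48 and 10.48, MTH1 at 7.92 and 8.10, STD1 at 8.38 and 8.52, HXT5 at 6.15 and 5.84, SNF3 at 6.86 and 6.79 and RGT2 at 7.25 and 7.33, all within the diploid parents' range.

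Ordered by group mean, HXT1 was highest in BY haploids (11.45), followed by BY diploids (11.27), segregant hybrids (11.12), mixtures (10.56), RM haploids (10.42), RM diploids (9.79), hybrids (8.97) and segregants (8.31). Neighbours in this order overlapped down to the RM haploids, and from there on each step separated without overlap. HXT7 was highest in hybrids (12.56), followed by segregants (12.35), segregant hybrids (11.97), mixtures (11.78), RM haploids and RM diploids (both 11.67), BY diploids (11.21) and BY haploids (11.07). Gaps without overlap lay between segregants and segregant hybrids and between RM diploids and BY diploids. MTH1 ran from 8.41 in hybrids to 7.32 in BY haploids, and only the last step, from BY diploids at 7.73, separated. STD1 ran from 8.48 in BY diploids to 7.91 in segregants, with overlap at every step. The same held for HXT3, HXT4, HXT5, SNF3 and RGT2, and HXT2 separated only at its top (segregants at 11.38) and bottom (BY diploids at 9.35).

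Across the 24 arrays of the 6 tested groups HXT1 and HXT7 were inversely related, with a Pearson correlation of -0.90, and of -0.72 after each group's mean was removed. HXT1 correlated at 0.80 with HXT3 and -0.81 with HXT4 (0.55 and -0.46 with group means removed). HXT7 correlated at 0.85 with HXT4 and 0.82 with MTH1 (0.71 and 0.46). The within-group values rested on mixture arrays 1 and 2, which lie at one end of their group. Without these arrays (22 arrays) the correlation of HXT1 and HXT7 was still -0.90 across arrays but -0.06 with group means removed. That of HXT1 and HXT4 was -0.80 and turned to 0.65, and that of HXT7 with HXT4 and MTH1 was 0.84 and 0.80 and became 0.25 and 0.05. HXT1 and HXT3 stayed related within groups, at 0.73, but HXT3 reached higher values with HXT2 (0.87) and HXT4 (0.80). HXT1 with HXT2 gave 0.63. The points share groups and arrays, and the correlations are given as a description.

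**Figure D4:**
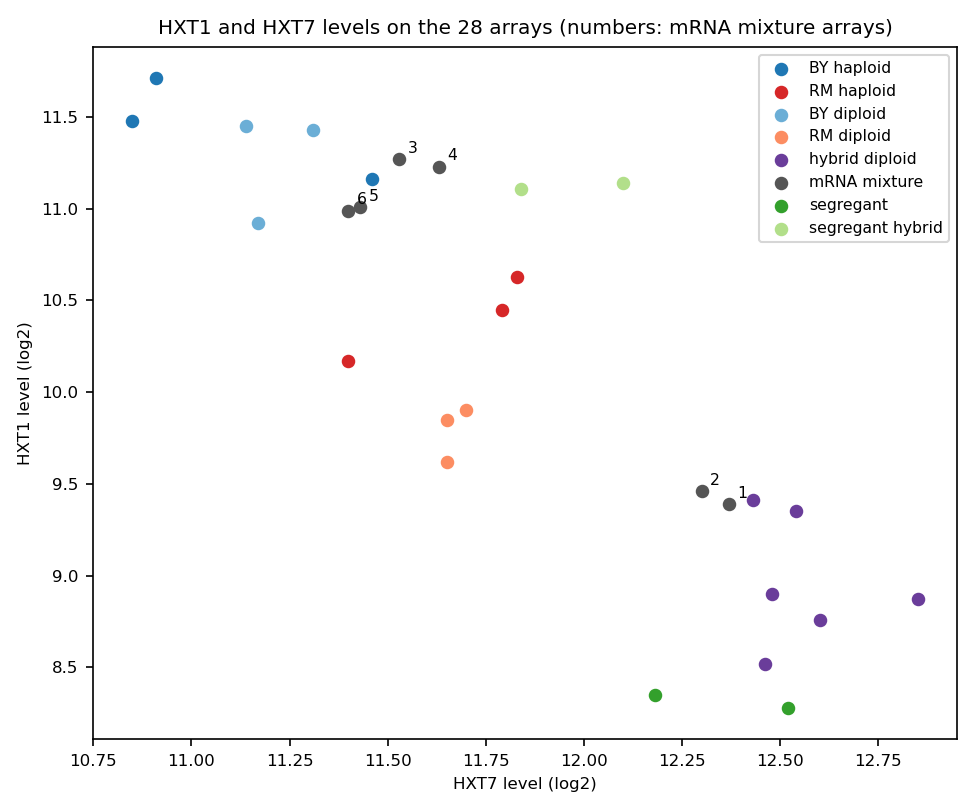
HXT1 level against HXT7 level (both log2) on the 28 arrays, coloured by group, with the mixture arrays numbered. BY arrays lie at high HXT1 and low HXT7, hybrids and segregants at low HXT1 and high HXT7, and mixture arrays 1 and 2 lie toward the hybrids, apart from mixtures 3 to 6.

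In the R64 annotation HXT4, HXT1 and HXT5 follow each other in that order with AHT1 between the first pair, and HXT7, HXT6 and HXT3 follow each other with YDR344C before HXT3. Within the first cluster HXT4 was above the hybrid midparent and HXT1 below it. Within the second HXT7 was above it and HXT3 was not called.

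For the members whose 6 group means spanned more than 1, the single-gene probe sets with the most similar pattern over the same 24 arrays were looked up by Pearson correlation. For HXT7 they were HXT6 (0.998), HXK1, which encodes hexokinase 1 (0.948), and STF2 (0.922). HXT1 was followed by GOT1 (0.907), NOP14 (0.901) and CNS1 (0.900), and HXT4 by RPO41, the mitochondrial RNA polymerase (0.900), MNP1, a mitochondrial ribosomal protein (0.899), and ATP5, an ATP synthase subunit (0.885). HXT5 was followed by YCL048W-A (0.916), GND2 (0.896) and TKL2 (0.871), of which the named ones encode minor isoforms of pentose phosphate enzymes. MTH1 was nearest to CBP6 (0.859), GSY1 (0.855) and ATP14 (0.853), and HXT2 to THI7 (0.835), MVD1 (0.780) and CYB5 (0.776). Without mixture arrays 1 and 2 (22 arrays), HXK1 with HXT7 gave 0.947, GOT1 with HXT1 0.901, MNP1 with HXT4 0.957, CBP6 with MTH1 0.890 and THI7 with HXT2 0.839.

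Genes that act beside the 10 were followed from named lists. The lists were chosen with earlier results of these data known, so their counts and medians are a description and not a test. Hexose kinases phosphorylate the sugar once it is inside, and 3 of 4 were higher in hybrids than the midparent, where 6.51% of all probe sets were, and 0 lower. The median of the list was 0.76, against -0.09 for all probe sets. HXK1 ranged from 12.09 to 12.85 in hybrids with a median of 12.23, and BY and RM diploids spanned 10.96 to 11.10 and 11.05 to 11.28, without overlap. It was 2.32-fold above the midparent (1.22 ± 0.18, adjusted p = 1.2e-04). EMI2, a paralog of glucokinase, rose by 0.75 ± 0.12 (adjusted p = 4.3e-04) and GLK1, the glucokinase gene, by 0.78 ± 0.22 (adjusted p = 0.0172). The same 3 were higher than in the mixtures, by 1.16 ± 0.18, 1.00 ± 0.12 and 0.84 ± 0.22 for HXK1, EMI2 and GLK1 (adjusted p = 2.4e-05, 1.1e-06 and 0.00556). Without mixture arrays 1 and 2 the differences were 1.5 ± 0.12, 1.17 ± 0.12 and 1.11 ± 0.22 (adjusted p = 5.6e-09, 8.0e-08 and 6.3e-04). HXK2, the main hexokinase in glucose, was called only between the strains, lower in RM diploids (-0.79 ± 0.19, adjusted p = 0.00342).

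Of 10 genes of the glucose repression pathway, 2 were higher and 2 lower in hybrids than the midparent, with a median of 0.02. Of all probe sets 6.51% were higher and 11.5% lower in this comparison, and with 10 genes nothing is read from the list's count. The lower ones were the repressor genes MIG2 (-0.47 ± 0.15, adjusted p = 0.0364) and MIG3 (-0.71 ± 0.18, adjusted p = 0.00773). The higher ones were SNF1, the kinase that inactivates Mig1 (0.25 ± 0.08, adjusted p = 0.0215), and GAL83, a subunit of its complex (0.37 ± 0.13, adjusted p = 0.0464). MIG1 was not called against the midparent. It was lower in RM than in BY diploids (-0.54 ± 0.11, adjusted p = 7.8e-04) and higher in RM than in BY haploids (0.34 ± 0.11, adjusted p = 0.0333), and its interaction was called (-0.88 ± 0.15, adjusted p = 0.00127). MIG2 was also lower in RM diploids (-0.85 ± 0.21, adjusted p = 0.00641).

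A list of 6 other genes of the glucose induction pathway held YCK1, YCK2, GRR1, RGT1, CYC8 and TUP1. Their median difference between hybrids and the midparent was -0.09, equal to that of all probe sets. Of the 6 genes, 1 was lower and 0 higher in hybrids than the midparent. It was TUP1, the general co-repressor (-0.30 ± 0.08, adjusted p = 0.0110), which was higher in diploids than haploids of BY (0.52 ± 0.11, adjusted p = 0.00300) and RM (0.42 ± 0.11, adjusted p = 0.0171). RGT1 and the casein kinase genes were not called in any comparison. Of the other hexose transporters 5 of 12 had a probe set of their own, of which HXT6 was higher than the midparent (1.10 ± 0.15), with a probe set that cannot be told apart from that of HXT7, and GAL2, the galactose permease, lower (-0.47 ± 0.12, adjusted p = 0.0105).

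Among 11 glucose-repressed genes 2 were higher and 1 lower in hybrids than the midparent, with a median of -0.04. With 18.1% of all probe sets called in this comparison, 3 of 11 is no result about the list. ALD4, a mitochondrial aldehyde dehydrogenase, rose by 0.87 ± 0.20 (adjusted p = 0.00556), ADR1, an activator of such genes, by 0.62 ± 0.14 (adjusted p = 0.00426), and ADH2 fell by 0.35 on the log2 scale (adjusted p = 0.0441). Of 5 genes of glucose signalling through cAMP none was called against the midparent with the probe set of highest mean. CYR1 had 8 other probe sets, of which 2 were called in this comparison, with differences of 0.13 to 0.51 over the 8.

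**Figure D5:**
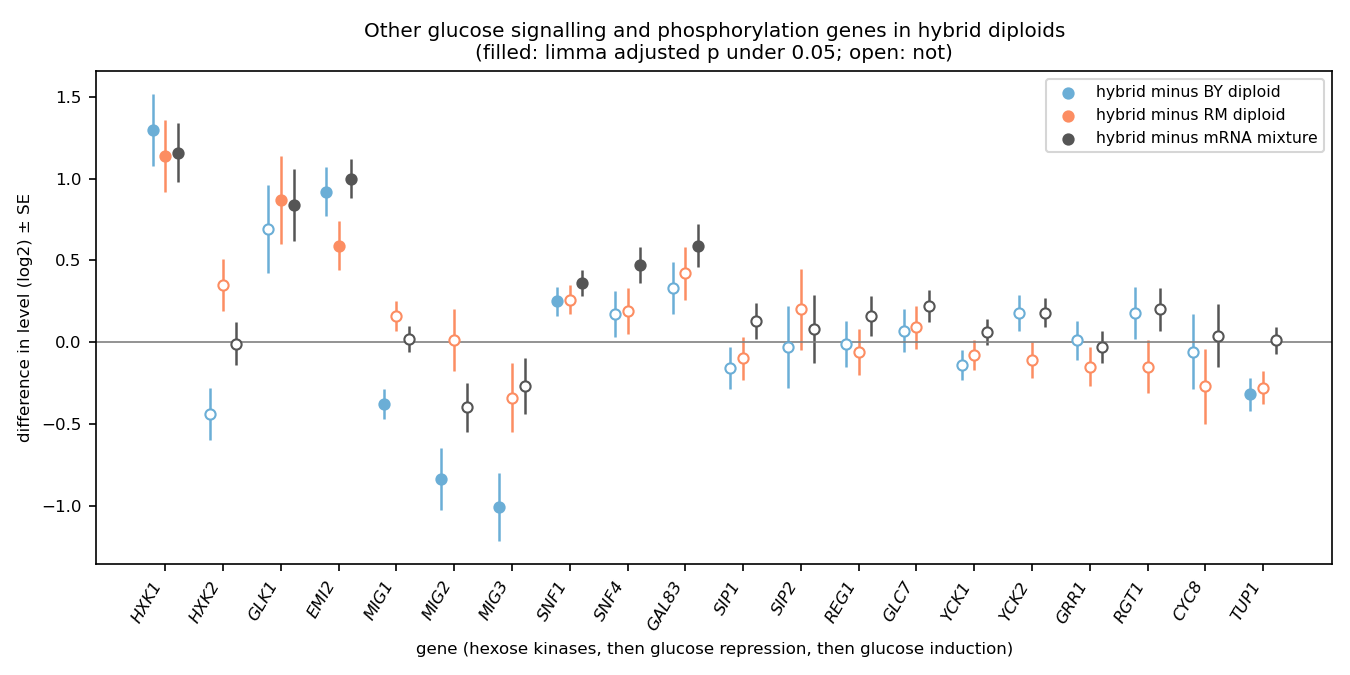
Difference in level (log2, vertical axis) with its SE for hexose kinases and for genes of glucose repression and induction (horizontal axis) between hybrid diploids and BY diploids, RM diploids and the mRNA mixtures. Filled points had a limma adjusted p under 0.05. HXK1 and EMI2 are filled in all 3 comparisons, and GLK1 in those with RM diploids and mixtures.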

How the data were processed

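Affymetrix yeast arrays of 28 samples were used. The authors deposited 1 level per probe set and array, read as log2 from the range of the values. The summary software, scaling and detection calls are not given in the sources used here. The tests took 9274 of the 9335 probe sets, without 60 controls and 1 that read 0 throughout. The platform table gave 6504 of them 1 gene, 328 several and 2442 none, and all 6504 matched the R64 gene table. No genome build comes with the arrays, so no coordinates are given.

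Group means of 24 arrays in 6 groups were fitted with limma 3.58.1 in R 4.3.3 (lmFit, eBayes without trend). Tests were two-sided, and p-values were adjusted by Benjamini-Hochberg across the 9274 probe sets, with a threshold of 0.05. The midparent difference has a delta-method SE. The 2 segregant and 2 segregant hybrid arrays were described but not fitted. The fit was tested on simulated data. Figures used Python 3.11.15 and matplotlib 3.10.9.

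The members and lists were chosen with earlier results of these data known. Named were all members, for each list up to 4 called genes per comparison by size (1 probe set per gene, the one with the highest mean), and the 3 most similar genes of members whose group means spanned over 1. The text names part of them. Per-sample columns without a sample numbered 0.

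As alternatives the levels were quantile normalized, centred on each array's median, floored at the 10th percentile or stripped of the dimmest 25% of probe sets. The fit was repeated on the compared groups only, on all 28 arrays, and with a variance trend, array weights, a replicate block, other midparents and each array left out. Leaving out mixture array 5, hybrid arrays 1 and 6, and mixture arrays 1 and 2 was chosen after seeing the data.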

Additional observations from a re-analysis of the deposited data

How the results depend on the processing

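Counts of called members moved with the fit more than the differences did. Of 2040 member values under alternatives, 1950 kept direction and call, 62 gained a call, 28 lost one, and none of the called values changed sign. For strain in haploids the count was 1, against 2 with quantile normalization, 0 without the dimmest 25% (which removes HXT5), 6 with the compared groups only, 4 with array weights, 3 without mixture array 5 and 2 without hybrid arrays 1 and 6. For strain in diploids it was 3, against 6 with the compared groups only and 6 with array weights. For ploidy it was 0, against 2 in BY with the compared groups only, and 1 in RM with quantile normalization, compared groups only, array weights, mixture array 5 left out or hybrid arrays 1 and 6 left out. The interaction went from 0 to 1 with the compared groups only. Hybrid against BY diploid went from 7 to 5 with the compared groups only (without HXT2 and HXT3). Hybrid against the midparent went from 5 to 4 without hybrid arrays 1 and 6 (STD1). It gained HXT3 and RGT2 with array weights, and HXT3 with a replicate block. Hybrid against mixture went from 4 to 3 with the compared groups only (MTH1). Hybrid against RM diploid went from 1 to 2 with the compared groups only and 5 with array weights, and hybrid against mixture from 4 to 8 with array weights. Mixture against haploid midparent went from 1 to 0 with quantile normalization, the compared groups only, mixture array 5 left out or mixture arrays 1 and 2 left out, to 3 with array weights and to 2 against the diploid midparent. Leaving out each array in turn gave 0 to 2 for strain in haploids and 0 to 2 for the mixtures against the haploid midparent. The cause was not tested.

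The labels state no pairing by replicate number. Deviations of same-numbered arrays correlated at -0.29 to 0.46, and no pair of compared groups had all of them over 0.1. With so few arrays in a group, these values cannot exclude a pairing. With a replicate block the count was 3 for strain in haploids, 3 for hybrid against RM diploid (adding HXT1 and HXT4) and 0 for mixture against haploid midparent.

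Median centring and quantile normalization moved the median of all probe sets by at most 0.11. The number of arrays limits precision, no detection calls or background come with the levels, and HXT5 lies near the floor. Probe sets were designed on 1 genome sequence, and whether RM alleles hybridise equally was not tested. The SE of the midparent assumes the same spread in all groups.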
